A study of Mus musculus with 12 samples.

Results

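Voltage-gated calcium channel genes (Cacna and Cacnb), voltage-gated sodium channel genes (Scn) and hyperpolarization-activated cyclic nucleotide-gated (HCN) channel genes were examined for peaks of lysine crotonylation (Kcr), an acyl mark of histones and other proteins. The members are the autosomal protein-coding genes of the RefSeq annotation of mouse build GRCm38 whose symbol starts with Cacna, Cacnb, Scn or Hcn and a digit. This rule gave 35 of 20665 autosomal protein-coding genes: 9 Cacna1, 4 Cacna2d, 4 Cacnb, 10 Scn alpha subunit genes (symbols ending in a), 4 Scn beta subunit genes (ending in b) and 4 Hcn genes. Cacna1f, which is X-linked, was not a member.

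The peaks came from chromatin immunoprecipitation and sequencing with a pan-Kcr antibody on dorsal hippocampus of C57BL/6J mice, which the labels give without age, sex or number of animals. The learning group had been trained in a spatial object recognition task, and the homecage group had stayed in the home cage. The time between training and tissue collection is not given for these libraries. Neither group carries an engineered allele or a drug treatment in the labels. Of the 12 libraries of the series, the 2 antibody libraries were used, 1 per condition, while the input libraries and the single-nucleus libraries of crotonate and saline mice were not analysed here. The learning list held 15844 autosomal peaks and the homecage list 329508. Learning peaks were thus fewer over the whole genome, and the read depth of the lists is unknown. There is therefore no replicate error, no test between conditions and no p-value, and each value describes these 2 libraries. In whole tissue, fewer cells of a type and less mark per cell cannot be told apart, and peak lists hold no expression values with which to check the tissue.

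Voltage-gated calcium and sodium channels consist of a large pore-forming alpha subunit and smaller accessory subunits. Calcium channels admit calcium during depolarization and couple electrical activity to transmitter release and to gene transcription. Sodium channels generate the action potential, and HCN channels open on hyperpolarization and set the resting properties and rhythm of neurons. In the hippocampus these channels control the excitability of pyramidal cells and interneurons and their plasticity.

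The promoters that a peak reached are given first, since they are the sequences at which both lists can be compared with the annotated starts. RefSeq (GRCm38.p6) listed 35 promoter windows, from 250 bases before to 50 after an annotated start, for 25 of the 35 members. A learning peak reached into 3 of these windows, those of Cacna2d1, Scn4b and Cacnb1, which encode an alpha2delta, a sodium channel beta and a calcium channel beta subunit. They are printed 5′ to 3′ on the strand of the gene, with the bases under the learning peak in capitals. The Cacna2d1 window is chr5:15934441-15934740 (plus strand), the Scn4b window chr9:45138374-45138673 (plus strand) and the Cacnb1 window chr11:98022578-98022877 (minus strand).
Cacna2d1: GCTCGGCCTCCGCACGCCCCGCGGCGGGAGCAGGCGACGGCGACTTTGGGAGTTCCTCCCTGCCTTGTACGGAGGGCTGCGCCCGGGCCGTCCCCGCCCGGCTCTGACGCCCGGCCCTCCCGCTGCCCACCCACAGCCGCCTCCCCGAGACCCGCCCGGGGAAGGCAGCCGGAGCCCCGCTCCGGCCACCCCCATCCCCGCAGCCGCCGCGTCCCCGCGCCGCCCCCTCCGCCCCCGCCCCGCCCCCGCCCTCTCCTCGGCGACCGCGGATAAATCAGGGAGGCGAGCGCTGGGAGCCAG
Scn4b: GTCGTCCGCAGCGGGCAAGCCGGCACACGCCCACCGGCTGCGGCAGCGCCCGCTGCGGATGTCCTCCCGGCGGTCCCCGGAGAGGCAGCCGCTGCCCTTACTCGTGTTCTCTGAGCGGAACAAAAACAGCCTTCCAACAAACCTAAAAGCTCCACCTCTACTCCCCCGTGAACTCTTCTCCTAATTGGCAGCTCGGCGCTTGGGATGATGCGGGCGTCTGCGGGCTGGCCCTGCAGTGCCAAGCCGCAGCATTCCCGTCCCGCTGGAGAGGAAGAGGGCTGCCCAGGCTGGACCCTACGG
Cacnb1: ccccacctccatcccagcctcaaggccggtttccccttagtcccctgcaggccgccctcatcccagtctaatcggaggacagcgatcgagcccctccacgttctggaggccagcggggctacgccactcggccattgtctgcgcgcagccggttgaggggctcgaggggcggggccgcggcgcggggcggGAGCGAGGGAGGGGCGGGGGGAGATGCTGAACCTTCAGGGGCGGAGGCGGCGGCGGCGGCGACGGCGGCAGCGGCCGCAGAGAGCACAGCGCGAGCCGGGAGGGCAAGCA
All 300 bases of the Cacna2d1 and Scn4b windows lay under a learning peak, and 110 bases at the 3′ side of the Cacnb1 window did.

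A homecage peak reached into 3 windows as well, that of Cacna2d1, in full, and 2 without a learning peak. The 2 are shown for contrast, with the bases under the homecage peak in capitals. They are an internal start of Cacna1e, the pore of the R-type calcium channel, at chr1:154725871-154726170 (minus strand), and the first start of Cacnb2, a calcium channel beta subunit, at chr2:14604056-14604355 (plus strand).
Cacna1e: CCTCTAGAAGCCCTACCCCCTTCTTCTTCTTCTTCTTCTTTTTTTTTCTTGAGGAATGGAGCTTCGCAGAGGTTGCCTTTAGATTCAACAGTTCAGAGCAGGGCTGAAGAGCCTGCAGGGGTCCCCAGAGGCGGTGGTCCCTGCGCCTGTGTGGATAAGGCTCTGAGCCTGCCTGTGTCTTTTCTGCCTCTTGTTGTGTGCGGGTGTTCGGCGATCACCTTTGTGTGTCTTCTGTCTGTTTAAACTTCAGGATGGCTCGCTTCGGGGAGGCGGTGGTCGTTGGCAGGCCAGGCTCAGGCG
Cacnb2: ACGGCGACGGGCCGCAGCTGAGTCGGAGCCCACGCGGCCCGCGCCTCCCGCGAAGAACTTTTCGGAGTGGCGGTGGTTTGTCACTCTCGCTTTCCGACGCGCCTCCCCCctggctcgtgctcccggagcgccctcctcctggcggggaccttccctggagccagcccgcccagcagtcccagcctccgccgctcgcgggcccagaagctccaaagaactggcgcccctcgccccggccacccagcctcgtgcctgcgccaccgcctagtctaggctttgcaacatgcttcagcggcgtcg
The homecage peak covered all 300 bases at Cacna1e and 109 bases at Cacnb2. The share of all promoter windows that a peak reached was not computed for either list. The counts of member windows reached therefore show nothing particular to the members.

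The 5 sequences differ in their content of CpG, a C followed by a G, the site at which vertebrate DNA is methylated. The CpG count in 300 bases was 42 at Cacna2d1, 26 at Scn4b, 34 at Cacnb1, 35 at Cacnb2 and 11 at Cacna1e, beside a median of 14 over the 20085 promoter windows of autosomal protein-coding genes. The GC box GGGCGG, searched on both strands with overlapping matches counted, occurred 7 times at Cacna2d1, 5 times at Cacnb1 and once at Cacnb2. It was absent from the letters of the Scn4b and Cacna1e windows. Of the member windows, 15 of 35 held it (42.9%), beside 47.0% of all windows. The TATA box TATAAA was in 2 member windows, of Scn2a and Cacna1d (5.71%, beside 12.7% of all windows), and the cAMP response element TGACGTCA in 0, beside 2.30% of all. These are matches of letters and not binding sites.

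Peaks within 1 kb of an annotated start followed the CpG count in the members as they did over all windows. Of the 16 member windows at or above the median CpG count, 5 had a learning peak within 1 kb of the start, and of the 19 below it, 0 had one. Over all windows the shares were 27.5% at or above the median and 6.61% below. For homecage peaks, the member counts were 11 of 16 and 4 of 19, beside 67.3% and 39.4% of all windows. The 5 starts with a learning peak were those of Cacna2d1, Scn4b and Cacnb1, an internal start of Cacna1d (63 CpG, the most of all member windows) and the first start of Scn8a (38 CpG). By gene, 5 of 25 members with an entry had a learning peak within 1 kb of a start, beside 17.5% of genes with an entry, and 14 of 25 had a homecage peak, beside 54.6%. Both counts are near the background.

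Over the whole genes, each of the 35 members had at least 1 homecage peak in the gene or within 1 kb of its ends, and 18 had a learning peak (51.4%, exact Clopper-Pearson 95% interval 34.0 to 68.6%). Over all autosomal protein-coding genes, 85.9% had a homecage and 28.5% a learning peak. The members are long, with a median of 111 kb, and long genes hold more peaks. Of the autosomal protein-coding genes, a learning peak was present at 18% of those under 30 kb, 39.3% of those from 30 to 100 kb, 60.6% of those from 100 to 300 kb and 86.7% of those of at least 300 kb. The members in these classes had 3 of 8, 2 of 7, 7 of 12 and 6 of 8 genes with a learning peak. In each class the background lay inside the interval of the members, so their share did not differ from that of genes of similar length beyond counting error. Applied to the lengths of the 35 members, the class shares of all genes give 18.4 members with a learning peak, beside the 18 found. The same reckoning is given below for each subfamily as the number at the class shares. For homecage peaks the classes had 78.6%, 99.4%, 99.9% and 100% of genes with a peak. All intervals cover only counting error, and they take genes, or peaks, as independent of each other.

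**Figure D1:**
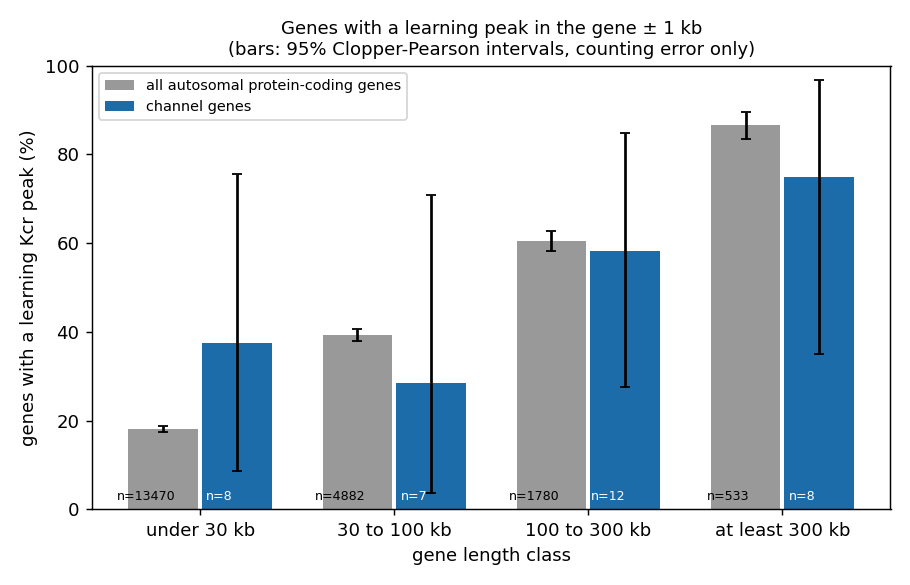
Share of genes with a learning peak in the gene or within 1 kb (y axis, percent) by gene length class (x axis), for all autosomal protein-coding genes (grey) and the 35 channel genes (blue), with exact Clopper-Pearson 95% intervals as error bars. The shares rise with length from 18% to 86.7% in all genes, and each channel gene interval includes the grey value of its class.

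By number, the members held 27 learning and 888 homecage peaks in 6.28 Mb. The learning density was 4.30 peaks per Mb (exact Poisson 95% interval 2.84 to 6.26), beside 8.93 per Mb summed over all autosomal protein-coding genes. That background falls with gene length, from 16.4 per Mb in genes under 30 kb to 4.92 in genes of at least 300 kb. Within the classes the members had 20.4 per Mb (4.20 to 59.5) against 16.4 in genes under 30 kb, 4.30 (0.521 to 15.5) against 10.5 from 30 to 100 kb, 5.09 (2.33 to 9.66) against 7.25 from 100 to 300 kb, and 3.34 (1.78 to 5.71) against 4.92 in the longest. No class thus differed beyond counting error. The members had the lower value in each class from 30 kb up and the higher one only under 30 kb. The sum over all classes lay under the value of all genes. That value includes many shorter genes, in which the density is higher, so it is not matched for length. A sum matched for length was not computed, so whether the members were low for their lengths as a whole was not tested. The homecage density was 142 peaks per Mb (132 to 151), beside 144 per Mb over all genes. The members thus had 32.9 homecage peaks for each learning peak, beside 16.8 in all autosomal protein-coding genes, each peak counted once. In genes of at least 300 kb the ratios were 43.2 in the members, from 13 learning peaks, and 27.1 in all genes. Here a peak counted for each gene that it reached. The ratios have no interval, and the learning density of this class did not differ beyond counting error.

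Expressed per gene, the members had a median of 13.4 homecage peaks per 100 kb, beside 14.3 over all autosomal protein-coding genes (25th to 75th percentile 9.03 to 20.9). The values ran from 4.74 at Hcn4 to 46.6 at Hcn2. Against genes of their own length class, 8 members lay above the upper quartile, 19 between the quartiles and 8 below the lower quartile. By definition about 25% of all genes lie above the upper quartile and about 25% below the lower one, so these counts are near the background. The high members included 5 of 9 Cacna1 genes, and the low ones 4 of 10 Scn alpha genes. Both are small counts, and a difference between subfamilies was not tested. Across the 35 members, gene length and the number of homecage peaks had a Spearman's rho of 0.94, and length and the number of learning peaks 0.48, both from the same 2 libraries. Over all genes the values were 0.87 and 0.39.

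**Figure D2:**
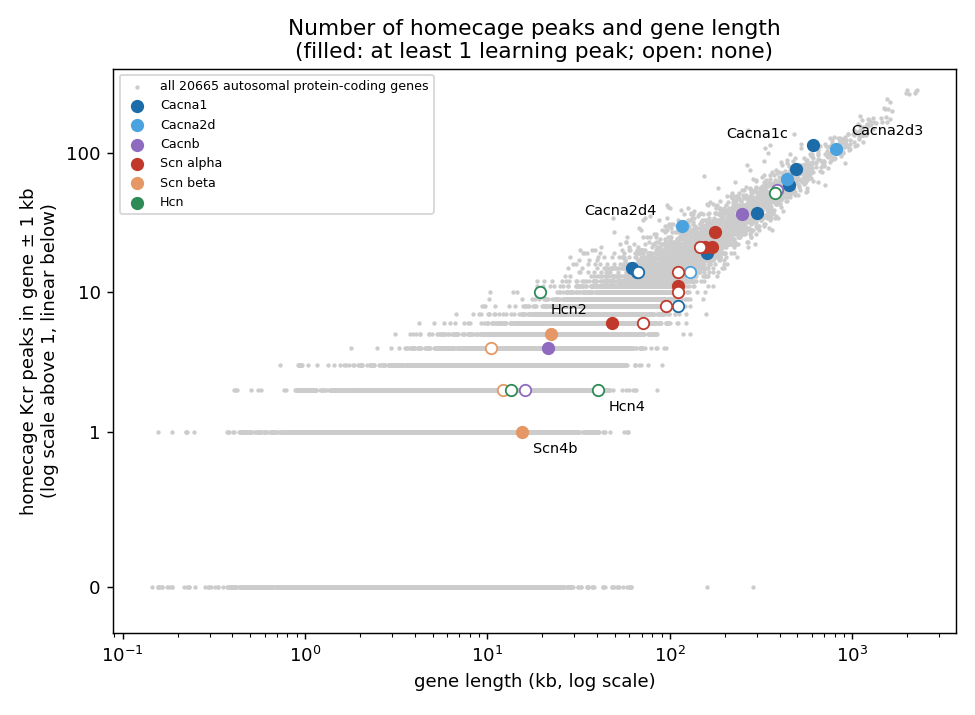
Number of homecage peaks in each gene or within 1 kb (y axis, log scale above 1) against gene length (x axis, kb, log scale), for all 20665 autosomal protein-coding genes (grey) and the channel genes (coloured by subfamily, filled with a learning peak, open without). The channel genes lie along the grey band, with Hcn2 (10 peaks) at its upper side and Hcn4 (2 peaks) at its lower side.

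**Figure D3:**
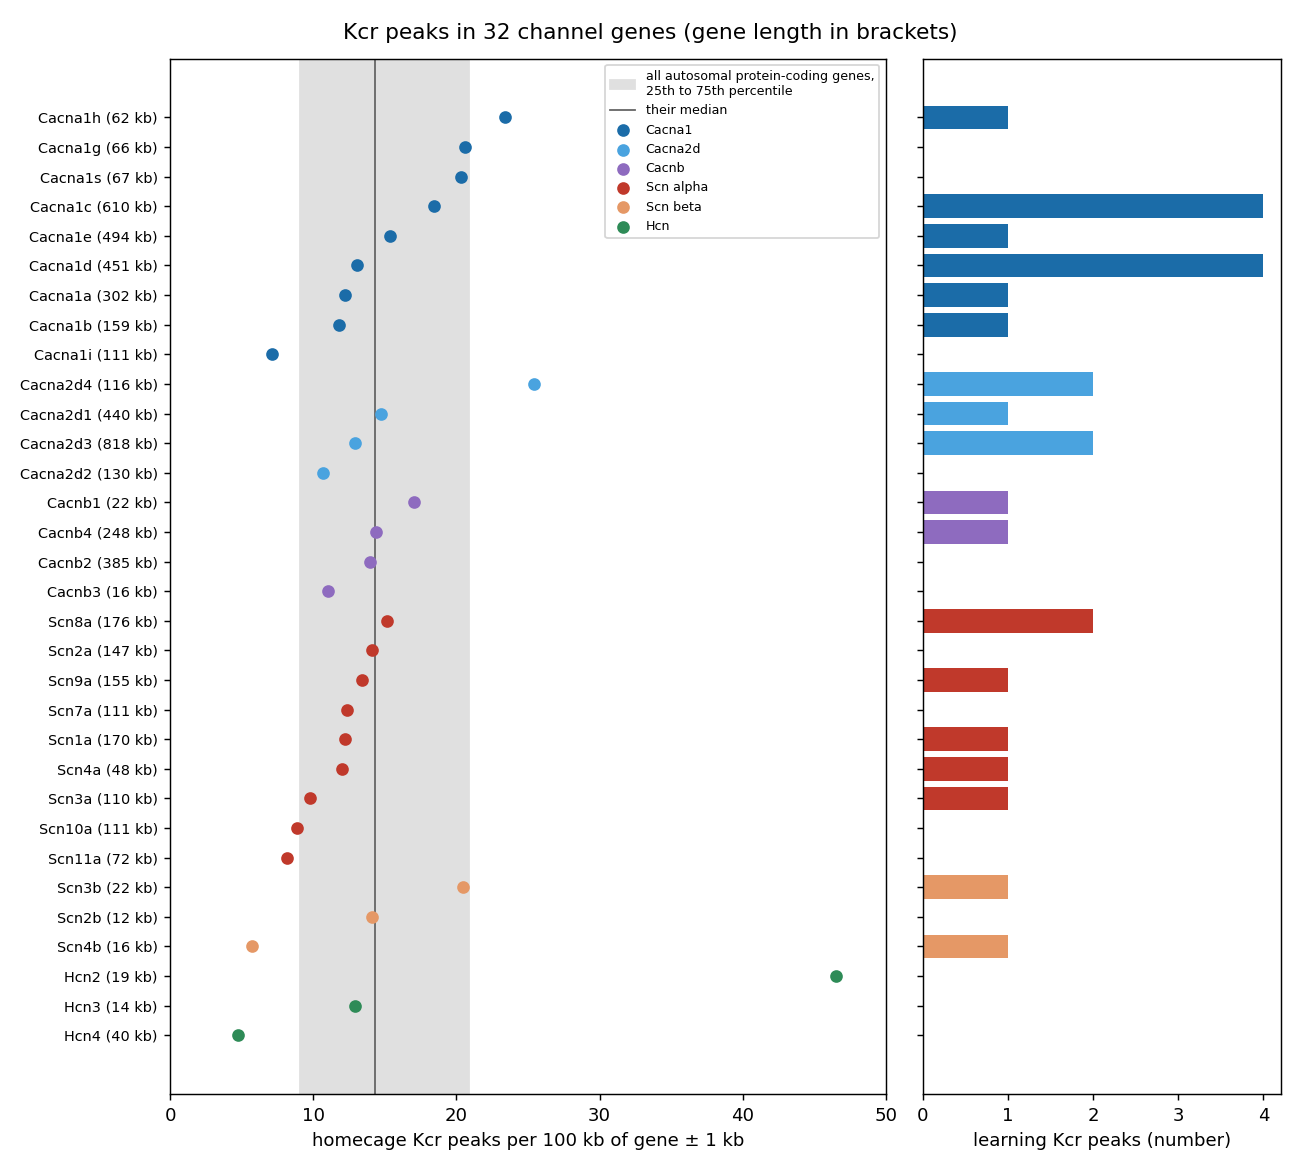
Homecage peaks per 100 kb (left, points) and number of learning peaks (right, bars) for 32 channel genes, ordered within subfamily, with the median and quartiles of all autosomal protein-coding genes as grey line and band. Hcn2 reaches 46.6 and Hcn4 4.74 homecage peaks per 100 kb, and Cacna1c and Cacna1d have the most learning peaks, 4 each.

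The pore-forming calcium channel genes had 12 learning peaks in 6 of 9 genes, beside 5.86 at the class shares, and 355 homecage peaks. They cover 2.34 Mb, more than any other subfamily, at 5.13 learning peaks per Mb (2.65 to 8.96). Cacna1c and Cacna1d, whose L-type channels link calcium entry to transcription, had 4 learning peaks each. Cacna1c, at 610 kb, held 113 homecage peaks, the most of all members (18.5 per 100 kb, above the upper quartile of 14.8 of its class). It also held the widest homecage peak of the members, 1813 bp at chr6:118713423-118715235. Its learning peaks were 163, 361, 146 and 441 bp wide, and the widest, chr6:119084744-119085184, overlapped a homecage peak of 291 bp. The other 3 lay 1365, 2089 and 2324 bp from the nearest homecage peak, and that of 361 bp was also near a lncRNA gene. All 4 were inside the gene, and none was within 1 kb of its 3 annotated starts, 1 of which has 57 CpG in its window and no peak of either list within 1 kb.

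Cacna1d (451 kb) had 59 homecage peaks, 13.0 per 100 kb, close to the 13.2 median of its class. Of its 4 learning peaks (194, 333, 321 and 238 bp), the one at chr14:30352753-30353073 was centred 573 bp from the internal start described above and overlapped a homecage peak of 147 bp. The other 3 had gaps of 215, 910 and 1585 bp to the nearest homecage peak, and the last also lay within 1 kb of Dcp1a, a neighbouring gene. Cacna1e (494 kb) had 1 learning peak of 455 bp at chr1:154691460-154691914, 34233 bp from the internal start printed above. It fell within a homecage peak of 1525 bp, chr1:154690888-154692412, the widest of that gene. Cacna1e held 76 homecage peaks (15.3 per 100 kb), 5 of them at least 1000 bp wide, more such wide peaks than any other member. A homecage peak of 705 bp lay across its outer 5′ end.

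The presynaptic channels had 1 learning peak each. That of Cacna1a, the P/Q-type pore, was 147 bp wide at chr8:84414660-84414806, 76102 bp from the nearer gene end and over a homecage peak of 285 bp. That of Cacna1b, the N-type pore, was 447 bp wide at chr2:24638656-24639102 and the nearest homecage peak was 1610 bp away. Their homecage densities, 12.2 and 11.8 per 100 kb, lay between the quartiles of their classes. The 3 T-type genes, whose channels open near the resting potential, were unlike each other. Cacna1h (62.0 kb) had 15 homecage peaks (23.4 per 100 kb) and 1 learning peak of 172 bp at chr17:25386580-25386751, 4496 bp from the nearest homecage peak. Cacna1g (66.0 kb) had 14 homecage peaks (20.6 per 100 kb) and no learning peak. Cacna1i (111 kb) had 8 homecage peaks (7.08 per 100 kb, under the lower quartile of 11.7 of its class) and no learning peak. Cacna1s, the skeletal muscle L-type pore, had 14 homecage peaks (20.3 per 100 kb) and no learning peak, so a high homecage density was not limited to the pores known from brain.

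**Figure D4:**
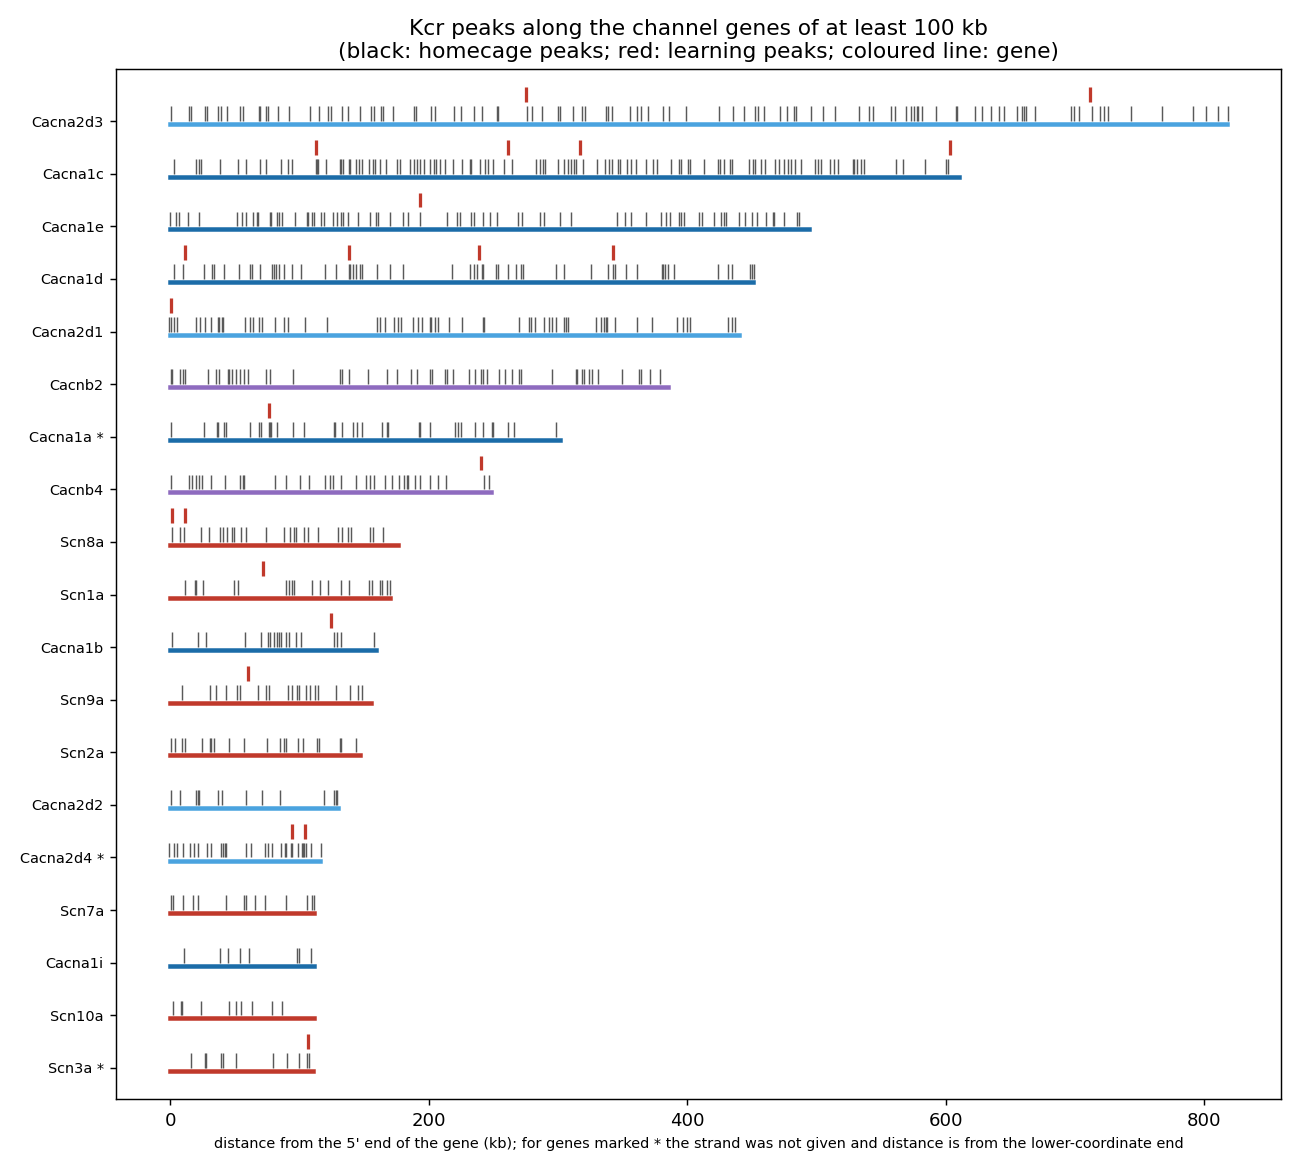
Peaks along 19 channel genes of at least 100 kb, drawn by distance from the 5′ end (x axis, kb; from the lower-coordinate end for genes marked with an asterisk, whose strand was not given), with homecage peaks in black above each gene line and learning peaks in red. Homecage peaks are spread along each gene, whereas learning peaks are single marks, at most 4 per gene, present in 13 of the 19 genes.

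The alpha2delta genes, whose products promote surface expression of calcium channels and include the targets of gabapentin, had 5 learning peaks in 3 of 4 genes, beside 2.94 at the class shares. Cacna2d1 had the widest learning peak of all members, 1068 bp at chr5:15934094-15935161. It covers the promoter printed above, is centred 64 bp from the annotated start and overlapped a homecage peak of 585 bp. A lncRNA gene, Gm3510, lies within 1 kb. Cacna2d1 had no other learning peak in 440 kb and 65 homecage peaks (14.7 per 100 kb). Cacna2d3, the longest member at 818 kb, had 2 learning peaks of 388 and 218 bp, both over 100 kb from either gene end, and 106 homecage peaks (12.9 per 100 kb). The second, chr14:29447290-29447507, overlapped a homecage peak of 842 bp, and the widest homecage peak of the gene was 1579 bp.

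Cacna2d4, best known from the retina, had 30 homecage peaks in 116 kb, 25.4 per 100 kb, beside an upper quartile of 16.4 in its class. Homecage peaks covered 11.8% of its interval, beside a median of 5.57% over the members. Its 2 learning peaks, 207 bp at chr6:119330344-119330550 and 407 bp at chr6:119340736-119341142, lay 23 and 97 bp from the nearest homecage peak without touching it. The first is also within 1 kb of Lrtm2, a nested protein-coding gene. Cacna2d2 had 14 homecage peaks (10.6 per 100 kb, below the lower quartile of 11.7) and no learning peak.

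Among the beta subunit genes, whose cytosolic proteins bind the calcium channel pore and regulate its trafficking and gating, 2 of 4 had a learning peak, beside 1.83 at the class shares. Cacnb1 had 1 of 430 bp at chr11:98022258-98022687, centred 155 bp from an annotated start, over a homecage peak of 218 bp and within 1 kb of Rpl19, a ribosomal protein gene. Cacnb4 had 1 of 327 bp at chr2:52436393-52436719, 8236 bp from its 3′ end and 2314 bp from the nearest homecage peak. Cacnb2 (385 kb) had 54 homecage peaks and no learning peak, and Cacnb3 (16.1 kb) had 2 homecage peaks and no learning peak. All 4 lay between the quartiles of their classes, at 11.0 to 17.0 homecage peaks per 100 kb.

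The sodium channel alpha genes had 6 learning peaks in 5 of 10 genes, beside 5.42 at the class shares, and 145 homecage peaks. Scn8a, which encodes the pore of the axon initial segment that sets the threshold of the action potential, had 2 learning peaks. The peak of 384 bp at chr15:100871095-100871478 was centred 641 bp from the first start and lay within a homecage peak of 713 bp. The peak of 531 bp at chr15:100881140-100881670 lay 585 bp from the nearest homecage peak. Scn8a also had the most homecage peaks of the alpha genes, 27 (15.2 per 100 kb). Scn2a, the other main pore of excitatory neurons, had no learning peak in 147 kb and 21 homecage peaks, among them the widest of the alpha genes, 1050 bp at chr2:65708406-65709455. Both pores of excitatory neurons thus had homecage densities between the quartiles of their class, 15.2 and 14.1 per 100 kb.

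Scn1a, the main pore of parvalbumin interneurons, had 1 learning peak of 197 bp at chr2:66369132-66369328. The nearest homecage peak was 17281 bp away, the largest gap of the 27 learning peaks, although the gene held 21 homecage peaks (12.2 per 100 kb). Scn9a, of sensory and some central neurons, had 1 learning peak of 214 bp at chr2:66574593-66574806 with a gap of 5981 bp. Scn3a, most expressed in the developing brain, had 1 of 270 bp at chr2:65563114-65563383 with a gap of 303 bp, and 9.78 homecage peaks per 100 kb, below the lower quartile of 11.7 of its class. Scn4a, of skeletal muscle, had 1 of 168 bp at chr11:106364812-106364979, near the outer 5′ end of the gene model 86 bp from a homecage peak of 678 bp and near a lncRNA gene. Scn7a, which encodes a sodium sensor of glia, had 14 homecage peaks and no learning peak.

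Scn10a and Scn11a, of pain-sensing neurons, lie near each other on chromosome 9. They had 10 and 6 homecage peaks, 8.86 and 8.14 per 100 kb, and no learning peak, and both were below the lower quartile of their class. The 5 genes on chromosome 2 (Scn3a, Scn2a, Scn1a, Scn9a and Scn7a) had 9.78 to 14.1 homecage peaks per 100 kb and 3 learning peaks. Their span of 1.33 Mb, other genes included, held 177 homecage peaks (13.3 per 100 kb) and 4 learning peaks. The lowest of these 5 genes, Scn3a, had 11 homecage peaks in 110 kb, beside 10 in 111 kb at Scn10a. Scn3a was also below the lower quartile of its class, so the groups were not clearly set apart. This comparison was chosen after the values were seen, neighbouring genes share their region, and with 1 library the difference has no replicate check.

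**Figure D5:**
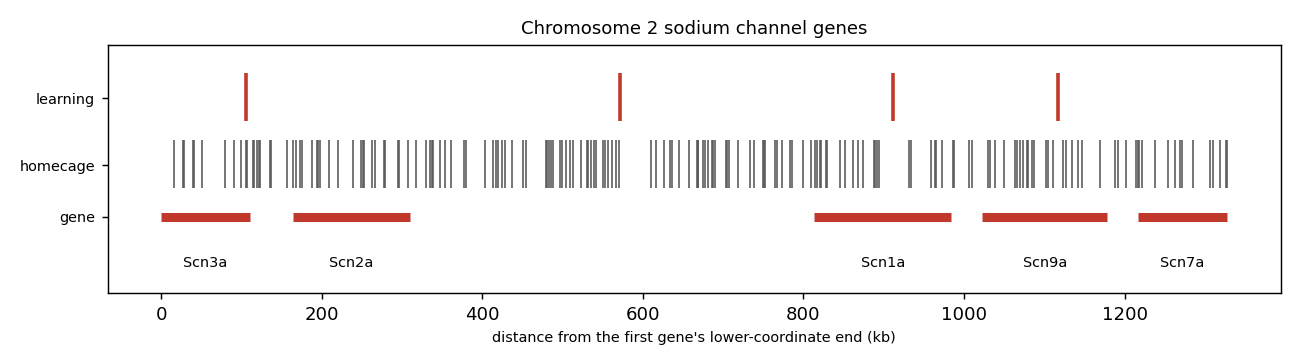
Homecage peaks (black ticks) and learning peaks (red ticks) over the sodium channel genes (thick bars) of chromosome 2, by distance from the lower-coordinate end of Scn3a (x axis, kb). The span holds 177 homecage and 4 learning peaks, 1 of the latter between Scn2a and Scn1a.

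The sodium channel beta genes, whose membrane proteins adjust the gating and placement of the pore, are short, at most 22.4 kb. A learning peak was present in 2 of 4, beside 0.72 at the class shares. Scn4b, the subunit of resurgent sodium current, had a learning peak of 582 bp at chr9:45138131-45138712, the second widest of the members, over the promoter printed above. It had 1 homecage peak, 383 bp at chr9:45149256-45149638, and the gap between the learning peak and the nearest homecage peak was 3627 bp. Scn4b was the only member with a learning peak at a gene end and no homecage peak at either end. At Scn3b the learning peak of 550 bp, chr9:40269599-40270148, overlapped a homecage peak of 1129 bp across the end of the gene, the widest of the beta genes. Scn2b, the neighbour of Scn4b, had 2 homecage peaks and no learning peak.

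None of the 4 Hcn genes had a learning peak, beside 1.62 at the class shares. Over their 0.460 Mb a count of 0, taken as at most 3 counts, allows up to 6.52 learning peaks per Mb. The densities of Cacna1 (5.13), Scn alpha (4.93), Cacna2d (3.31) and Cacnb (2.95) lay under this limit, so a difference from them was not detectable. That of Scn beta, 29.1 per Mb from 2 peaks, lay above it, with an interval of 3.53 to 105 that includes it. Hcn2, the widely expressed brain form, had 10 homecage peaks in 19.5 kb, or 46.6 per 100 kb, beside an upper quartile of 24.6 in its class. Its peaks covered 20.2% of its interval, and 2 of them, of 310 and 268 bp, lay on either side of the annotated start. Hcn3 had 2 homecage peaks, 1 of them 1001 bp wide. Hcn4, the pacemaker form of the heart, had 2 homecage peaks in 40.2 kb, the lowest density of the members, and none within 1 kb of its start, whose window has 31 CpG.

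At the gene ends, 5 members had a learning peak within 1 kb of either end (14.3%, 4.81 to 30.3%), beside 16.5% of all autosomal protein-coding genes. These were Cacna2d1, Cacnb1, Scn3b, Scn4a and Scn4b. A homecage peak was at the ends of 24 members (68.6%, 50.7 to 83.1%), beside 64.3%, and both lists had a peak at 4, beside 14.5% of all genes. No member with a known strand had a learning peak within 1 kb of the 3′ end (0 of 25, beside 1.95% of genes with an entry). A homecage peak was at the 3′ end of 7 of 25, namely Cacna1s, Scn1a, Scn7a, Cacna2d2, Cacnb1, Cacna2d3 and Cacna1d, beside 31.5%. None of these counts stood apart from the background. In the first 1 kb inward from both ends the members had 71.4 learning peaks per Mb (23.2 to 167, from 5 peaks), and from 1 to 5 kb inward 7.14 (0.865 to 25.8, from 2 peaks). In genes at least as long as the shortest member the densities were 83.8 and 11.9. Homecage peaks fell off less, from 386 (254 to 561) to 186 (139 to 244) and, from 5 to 20 kb, 128 (105 to 156) per Mb, beside 329, 162 and 141.

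Of the 27 learning peaks in the members, 9 overlapped a homecage peak by at least 1 bp (33.3%, 16.5 to 54.0%), beside 48.6% of the 8621 learning peaks in or near autosomal protein-coding genes. The background lay within the interval. Of the 5 learning peaks centred within 1 kb of an annotated start, 4 overlapped a homecage peak (all but Scn4b), and of the other 22, 5 did. This split was made after the values were seen, and 4 of those 22 peaks, of Cacna1a, Cacna1e, Cacna1c and Cacna2d3, were deep in a gene and shared, while the fifth, of Scn3b, lay at the end of a gene without a promoter entry. Split by gene end instead, 3 of 5 peaks at an end and 6 of 22 others overlapped a homecage peak. Neither split was computed over all genes. There, 16.5% of genes had a learning peak at an end and 14.5% had peaks of both lists at an end. The 18 peaks without overlap had a median gap of 1475 bp to the nearest homecage peak, 7 of them within 1 kb and 2 beyond 5 kb. Conversely, 879 of the 888 homecage peaks in the members had no learning partner. The autosomal homecage list held 329508 peaks and the learning list 15844. The share without a partner was not computed over all genes, so this count shows nothing particular to the members. Learning peaks in the members had a median width of 327 bp, beside 312 bp for those in all genes, and homecage peaks 339.5 bp beside 355 bp. Homecage peaks of at least 1000 bp made up 2.70% (1.74 to 3.99%) of those in the members, beside 3.43% in all genes. At least 1 such peak was present in 15 members. The share of all genes with one was not computed, by length class or otherwise.

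A list of 31 genes, called partner genes here, was also examined, and it holds genes of channel-binding proteins and of related channels. It includes the Cacng genes, ankyrins, fibroblast growth factor homologous factors, presynaptic scaffolds and the sodium leak channel complex. All 31 matched the annotation. Their median length was 97.7 kb. A learning peak was present in 18 (58.1%, 39.1 to 75.5%), beside 49.5% at the shares of their length classes, which lies within the interval. By class, from the shortest to the longest, these were 5 of 10, 0 of 6, 6 of 7 and 7 of 8 genes. A homecage peak was present in 30 of 31, beside 93% at the class shares, at a median of 12.4 per 100 kb. Unc80, a subunit of the sodium leak channel complex, had 7 learning peaks, more than any member. None of the 8 Cacng genes had a learning peak, beside 2.72 at the class shares, and 7 had a homecage peak, beside 7.33.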

How the data were processed

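Per the labels, 2 pan-Kcr antibody libraries were used, 1 per condition, and the input and single-nucleus libraries were not analysed here. The deposited files list other measurements than counts, namely peak positions in base pairs, in 4 columns (chromosome, start, end, name). Per the submitters' processing notes, mm10 (GRCm38), Trimmomatic, BWA and MACS2 were used, and the peak names give broad peaks at a p threshold of 0.01. Control, filters and pooling are not given in the sources used here, and read depth is unknown, so peaks were not ranked by strength.

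The members, classes and lists were chosen with earlier results of these data known. Starts were made 1-based. Peaks were counted in each gene with 1 kb on either side (RefSeq GRCm38.p6), within 1 kb of each end, and around starts from the RefSeq promoter table. A peak near neighbouring genes counts for each. No promoter entry, and so no strand, was used for 10 members. The rule gave full values for the 15 members with the widest learning peaks, for those in each subfamily with the widest homecage peak or with the most or fewest homecage peaks per 100 kb, for the 3 with the widest peak of each list, and for any member without a peak, of which there were 0. Other members with values, and the partner genes named, were chosen after their values were seen. Intervals are exact (95%) and cover counting error only. Counting functions were tested on simulated data. The tools were scipy 1.17.1, pandas 2.3.3 and numpy 2.4.6 under Python 3.11.15, with matplotlib 3.10.9 for figures. Alternatives were other flanks and windows, peak centres, a 500 bp minimum width, merging of peaks, stricter and looser overlap, and the widest homecage peaks. Values of 3 members and 1 partner gene are not reported singly here, though counts and medians include them.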

Additional observations from a re-analysis of the deposited data

How the results depend on the processing

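No paired analysis was possible because the comparison rests on 1 antibody library per condition, and no replicate could be left out for that reason. Files as analysed hold no q value, so the stricter list was made by width alone. Of 60 recomputed values, 47 stayed within 1.5 times (numbers and densities) or within the interval (shares), and 13 moved. With peaks of at least 500 bp, 4 members had a learning peak (4 peaks in all) and the homecage peaks fell to 207, with a median of 3.54 per 100 kb. The members with a peak at a gene end were then 3 in the learning and 10 in the homecage list. The share of members with such a learning peak was 0% from 30 to 100 kb, 8.33% from 100 to 300 kb and 12.5% from 300 kb. Under 30 kb it was 25%, the highest of the classes, and stayed within the interval. The class shares of all genes were not computed at this width. Over all genes, 6.65% had a learning peak of that width, beside 11.4% of the members. Counting a homecage peak within 1 kb as shared raised the share of learning peaks to 59.3%. The share over all genes was not computed under this looser rule. With the homecage list reduced to its 15844 widest peaks, the number of autosomal learning peaks (chosen after seeing the data), 19 members had a homecage peak, 37 peaks lay in members and 4 members had one at a gene end. The share of all genes with such a peak was not computed, so these counts show nothing particular to the members.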

Other observations

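Cacna1f, the X-linked calcium channel pore known from the retina and left out by the rule, had 0 learning and 0 homecage peaks in 28.1 kb and the 1 kb on either side.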
